A study of Drosophila melanogaster with 3 samples.

Results

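The sites described here are those of 10 Drosophila melanogaster genes that encode insulator and housekeeping promoter factors: su(Hw), CTCF, BEAF-32, pita, Cp190, mod(mdg4), Chro, Dref, M1BP and Trl. They were listed by name, with earlier results of these data known, though no measured value enters the rule, and are 10 of 13968 protein-coding genes among the 18277 genes of the annotation. Binding of dmrt11E, a DM-domain transcription factor, had been profiled by ChIP-seq, the sequencing of immunoprecipitated chromatin, in whole embryos of 2 to 10 h, both sexes pooled. The line was transgenic and stably made dmrt11E with green fluorescent protein fused to its C-terminus, and chromatin sheared to 200 to 800 bp was recovered with an antibody against the fluorescent protein. The promoter that drove the fusion is not given in the sources used here. There was 1 group of 3 biological replicates, numbered 1, 2 and 3 in the labels, and no second genotype, age or treatment. All values are the authors' peaks, called against 1 shared control on assembly dm6, and a pull-down from embryos without the tag was not analysed here, so signal that depends on the tag cannot be told apart from signal that does not. The 3 replicate lists and the list of the pooled replicates held 30000 peaks each. Of these, 9206, 15075 and 10842 in replicates 1, 2 and 3 and 11618 in the pooled list had −log10 q of at least 2. The list that passed the authors' irreproducible discovery rate (IDR) limit was shorter, with N peaks that merge into 6504 separate regions, each peak with −log10 q of at least 2. The N highest peaks of a replicate, N being the length of the IDR list, are called its top N. Peaks were ranked by the authors' signal value within each list, with 1 as the highest. The lists carry no read depth.

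Insulator proteins mark borders between chromatin domains and bring distant sites together. In flies su(Hw), CTCF, BEAF-32 and pita encode DNA-binding proteins of this kind, Cp190 and mod(mdg4) encode BTB-domain cofactors that such proteins recruit, and Chro encodes Chromator, a chromodomain protein of open, gene-rich interband chromatin. The products of Dref and M1BP bind elements of housekeeping promoters, called the DRE and Motif 1, and the product of Trl is the GAGA factor, which keeps promoters open.

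The letters under the leading peaks are shown first, since the results return to where the summits lie in them. The sequence is the plus strand of the RefSeq copy of assembly dm6, 5′ to 3′, and capitals mark a match to one of the motifs searched. Chro stands for the 25 bases centred on its summit at chr3L:22878885-22878909, inside its 5′ UTR, and the Chro to Ssl1 line for the 104 bases between the starts of both genes at chr3L:22878985-22879088. The intervals between starts are also given for Cp190 and CG4338 at chr3R:15275242-15275521 and for Dref and RpL13 at chr2L:9967230-9967312, because both hold the summit. M1BP at chr3R:8731830-8731930, su(Hw) at chr3R:14308898-14308998 and Trl at chr3L:14759474-14759574 are 101 bases centred on the summit, the width used for all motif counts.
Chro summit: tgcctgtCGATAgctttaaactaac
Chro to Ssl1: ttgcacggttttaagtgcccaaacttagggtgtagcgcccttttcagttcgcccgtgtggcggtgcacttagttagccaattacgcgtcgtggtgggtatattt
Cp190 to CG4338: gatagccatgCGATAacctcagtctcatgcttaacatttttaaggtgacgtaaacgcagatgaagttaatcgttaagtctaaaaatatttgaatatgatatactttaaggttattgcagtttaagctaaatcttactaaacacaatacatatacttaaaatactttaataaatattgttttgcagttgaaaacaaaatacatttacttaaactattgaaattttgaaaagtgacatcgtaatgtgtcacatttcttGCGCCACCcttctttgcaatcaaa
Dref to RpL13: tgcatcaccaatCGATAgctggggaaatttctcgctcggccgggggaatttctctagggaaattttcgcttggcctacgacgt
M1BP summit: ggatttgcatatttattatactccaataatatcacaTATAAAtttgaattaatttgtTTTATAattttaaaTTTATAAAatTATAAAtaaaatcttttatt
su(Hw) summit: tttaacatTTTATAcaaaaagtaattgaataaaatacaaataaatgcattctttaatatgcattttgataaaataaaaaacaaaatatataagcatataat
Trl summit: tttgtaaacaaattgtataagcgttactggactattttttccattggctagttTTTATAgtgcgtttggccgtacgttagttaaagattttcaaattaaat
The capitals are CGATA, the core of BEAF-32 sites, in the lines for Chro, Cp190 and Dref. In the Cp190 line they also mark GGTGGCGC, the core of CTCF sites, on the minus strand. In the lines for M1BP, su(Hw) and Trl they mark TATAAA, the letters of a TATA box, on either strand. These are matches of letters in windows of 11.9%, 13.9% and 29.7% GC, and a use as a TATA box was not tested.

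All 10 genes had at least 1 IDR summit in the gene body or within 5 kb of it, against 54.6% of all protein-coding genes. With the gene body alone the count was 6, against 13.0% of protein-coding genes. An IDR summit lay within 500 bp of an annotated transcription start site (TSS) in 9 of the 10, against 23.8% of protein-coding genes, and the exception was mod(mdg4). It was 5 genes, against 13.2% of protein-coding genes, among the 3353 IDR peaks of higher signal, and 4, against 12.0%, among IDR peaks with a reciprocal overlap of 50% with a top N peak in every replicate. Without replicate 2 or without replicate 3, which keeps IDR peaks overlapped by a top N peak in both other replicates, CTCF, pita and su(Hw) also dropped out and 6 genes were left, against 18.2% of protein-coding genes without replicate 2 and 18.8% without replicate 3. The 9 genes were kept without replicate 1, against 19.7%. Counted in each replicate's own top N, 7 genes had a promoter summit in replicate 1, where CTCF, su(Hw) and mod(mdg4) had none. Of these 7, pita was counted through another peak, ranked 5936, since the replicate 1 peak at its promoter IDR peak ranked 9313. All 10 genes had a promoter summit in replicate 2 and 9 in replicate 3. The shares of protein-coding genes were 23.9%, 24.0% and 23.4% in replicates 1, 2 and 3. The members were longer than the average gene, with a median of 4472.5 bp against 2164.5 bp over protein-coding genes, and the part of length in these counts was not tested. With 1 group and no contrast, no test was possible, and these shares are descriptions.

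The genes' strongest peaks ranked between 6 at Chro and 4505 at CTCF. Chro, Trl and Cp190 had an IDR peak ranked 100 or better, which is 3 of 10 genes against 2.03% of protein-coding genes. At promoters, Chro, Cp190 and M1BP reached rank 1000 or better, again 3 of 10, against 4.32%. The median rank of the best IDR peak in the gene body or within 5 kb was 1265 over the 10 members (quartiles 141.75 and 2439) and 2231 over the 7623 protein-coding genes with such a peak (quartiles 968.5 and 4041). At promoters the median rank was 2523 over 9 members and 3010 over 3323 protein-coding genes, and the quartiles of 541 and 3701 overlapped those of 1392 and 4785.5. The plot of the share of genes by rank places the 9 promoter peaks between ranks 6 and 5819.

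**Figure D1:**
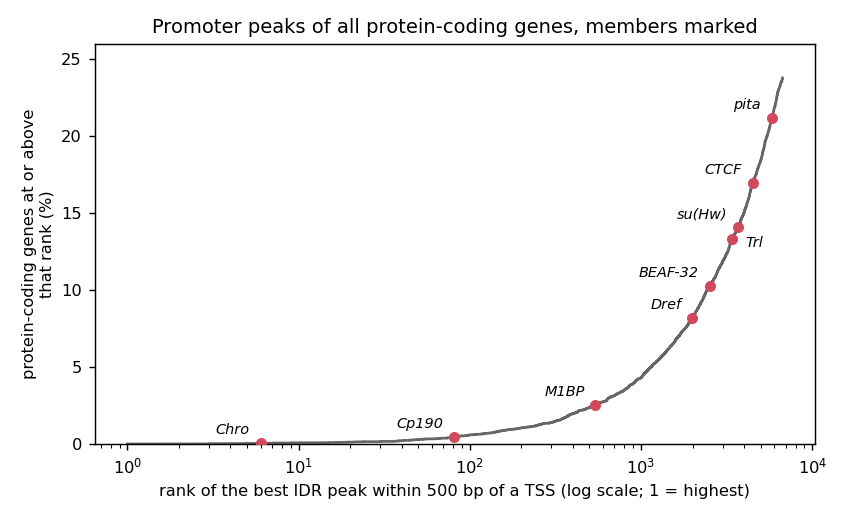
Share in percent of the 13968 protein-coding genes (vertical axis) whose best IDR peak within 500 bp of a TSS is at or above a given rank (log scale), with 9 of the 10 genes marked. The curve ends at 23.8%; the marked genes run from Chro at rank 6 to pita at rank 5819.

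**Figure D2:**
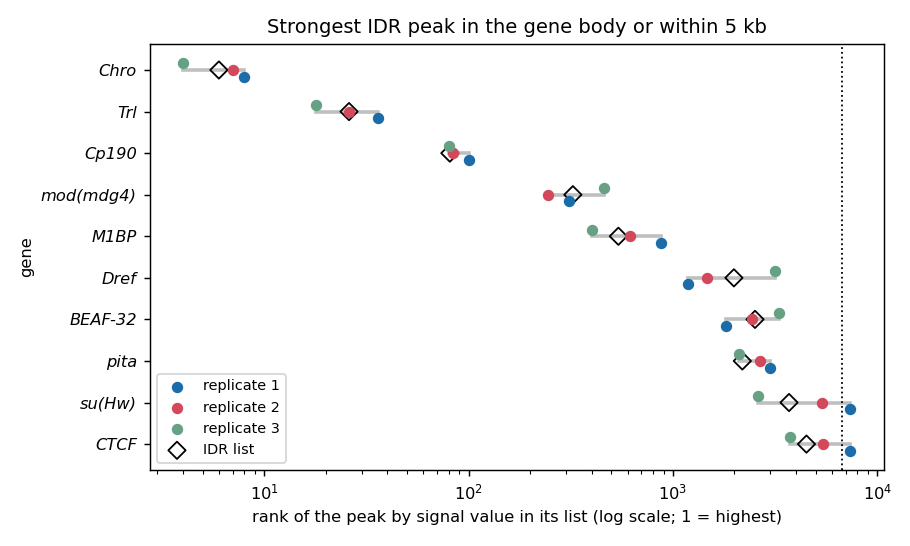
Rank (log scale, 1 is the highest signal value) of each gene's strongest IDR peak in the gene body or within 5 kb. Coloured points are the overlapping peaks in the 3 replicate lists, open diamonds the IDR list, grey bars the range of the replicates, and the dotted line rank N. Chro, Trl and Cp190 stood apart from their neighbours, and from Dref down to CTCF each range overlapped the next.

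By mean rank over the 3 replicates the order was Chro, Trl, Cp190, mod(mdg4), M1BP, Dref, BEAF-32, pita, su(Hw) and CTCF, as the plot of ranks by replicate shows. The replicate ranges of Chro, Trl, Cp190 and mod(mdg4) did not overlap between neighbours, and neither did those of M1BP and Dref. The ranges of mod(mdg4) and M1BP overlapped, and so did every neighbouring pair from Dref to CTCF, so the order within those runs is not resolved by 3 replicates. Across the replicate peaks that overlap it, the summit of a gene's best peak spanned a median of 32.5 bp and at most 107 bp.

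Among the DNA-binding insulator genes, none had a leading peak above rank 2187. At su(Hw) (FBgn0003567, 3R, 14304455 to 14308589, minus strand), which encodes the zinc-finger protein of the gypsy insulator, the best peak spanned 14308746 to 14309149 and ranked 3701. Its replicate ranks were 7319, 5355 and 2600 in replicates 1, 2 and 3 (mean 5090 ± 2370, SD, n = 3), so replicate 1 was outside the top N. The summit was 359 bp upstream of su(Hw) and 141 bp upstream of Polr2I, an RNA polymerase II subunit gene on the other strand, which is the nearer start. When each summit was given only to the nearest coding TSS, su(Hw) had none left. Its other IDR peaks, ranked 4931 and 5652, lay in introns of red and CG31321.

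At CTCF (FBgn0035769, 3L, 7353578 to 7356713, minus strand), the gene of the insulator protein shared with vertebrates, the only IDR peak ranked 4505 and spanned 7356381 to 7356784. It ranked 7398, 5402 and 3756 in replicates 1, 2 and 3 (mean 5520 ± 1820, SD, n = 3), with replicate 1 again outside the top N. The summit lay 130 bp downstream of the TSS, in the 5′ UTR, where the antisense transcript asRNA:CR45822 also has an exon. Both su(Hw) and CTCF were therefore highest in replicate 3 and lowest in replicate 1.

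BEAF-32 (FBgn0015602, 2R, 14770469 to 14772630, plus strand), which encodes a boundary element protein, had IDR peaks at separate starts. The stronger spanned 14770241 to 14770509 and ranked 2523, with 1819, 2432 and 3314 in replicates 1, 2 and 3 (mean 2520 ± 752, SD, n = 3). Its summit was 105 bp upstream of the first start of BEAF-32. It lay in an intron of asRNA:CR42254, a non-coding antisense gene, 94 bp upstream of an internal start of that gene. The weaker, at 14771055 to 14771458, ranked 5587 and lay 44 bp upstream of an internal start. Its replicate ranks of 8286, 5151 and 4516 (mean 5980 ± 2020, SD, n = 3) ran the other way, with replicate 1 the weakest there and the strongest at the first start.

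At pita (FBgn0034878, 2R, 23548967 to 23554712, minus strand), a gene of a zinc-finger insulator protein, the strongest peak lay past the 3′ end and not at the promoter. It spanned 23547951 to 23548207 and ranked 2187, with 2980, 2666 and 2105 in replicates 1, 2 and 3 (mean 2580 ± 443, SD, n = 3). Its summit lay 69 bp inside wmd and 157 bp upstream of levy, a gene of a cytochrome c oxidase subunit. An overlapping IDR peak ranked 5604 had its summit 43 bp inside levy, and the replicate peaks with the nearest summits ranked 16233, 15775 and 7697, none of them in the top N. The peak at the pita promoter, 23554454 to 23554857, had its summit in the 5′ UTR 56 bp downstream of the TSS and ranked 5819. It was at 9313, 5284 and 4927 in replicates 1, 2 and 3 (mean 6510 ± 2440, SD, n = 3), and replicate summits there spanned 263 bp.

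The leading peaks assigned to the cofactor genes ranked higher, 81 at Cp190 and 324 at mod(mdg4). Only that of Cp190 was at the gene's own promoter, and that of mod(mdg4) was nearer to the start of tin. Cp190 (FBgn0000283, 3R, 15270432 to 15275241, minus strand), which encodes a BTB and zinc-finger protein found with most fly insulators, had a promoter peak at 15275143 to 15275603 that ranked 81. It ranked 101, 84 and 80 in replicates 1, 2 and 3 (mean 88.3 ± 11.2, SD, n = 3), and replicate summits fell within 16 bp. The summit lay 139 bp upstream of Cp190 and 142 bp upstream of CG4338, which is transcribed the other way, or 2 bp from the midpoint between the starts. A second IDR peak ranked 4969 and lay 37 bp upstream of ATPsynO, a mitochondrial ATP synthase subunit gene beyond the 3′ end of Cp190.

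The gene mod(mdg4) (FBgn0002781, 3R, 21350846 to 21377401, minus strand) spans 26556 bp and makes many protein isoforms by joining a shared 5′ part to alternative 3′ exons, some by trans-splicing. Its own start had no IDR peak. A pooled peak 13 bp downstream of the start ranked 7744, outside the IDR list, and the best peaks within 500 bp of that start ranked 6996, 6409 and 14242 in replicates 1, 2 and 3. The strongest peak assigned to it, at 21378550 to 21378938, ranked 324, with 309, 245 and 458 in replicates 1, 2 and 3 (mean 337 ± 109, SD, n = 3). Its summit was 1352 bp upstream of mod(mdg4) and 224 bp upstream of tin, the homeobox gene of heart mesoderm, so tin is the nearer start. Inside the gene, an intronic peak at 21365233 to 21365649 ranked 634, with 894, 704 and 516 in replicates 1, 2 and 3 (mean 705 ± 189, SD, n = 3). It lay in the region of the alternative 3′ exons, where the annotation places separate starts of the trans-spliced units. The summit was 50 bp downstream of the start of unit E and 148 bp upstream of those of units AB and C. These units are annotated as genes of their own, so their starts were not counted as starts of mod(mdg4). The last IDR peak, ranked 4072, lay in an intron of aus. The coding starts nearest to these peaks were those of tin, unit E and aus, and mod(mdg4) had no peak left under the nearest-TSS rule.

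Chro (FBgn0044324, 3L, 22873702 to 22878984, minus strand) had the strongest peak of the 10 genes, at 22878673 to 22879147, and no other IDR peak. It ranked 6 in the IDR list and 8, 7 and 4 in replicates 1, 2 and 3 (mean 6.33 ± 2.08, SD, n = 3). Its signal values there were 1339.8, 1957.5 and 2791.4, where the highest peak of each list had 1996.3, 2942.5 and 3412.4, each on the list's own scale. The summits fell within 16 bp of each other, and the IDR summit was 87 bp downstream of the outermost Chro start, in the 5′ UTR and outside the interval between both genes. In the sequence above, CGATA ends at the base just before that summit.

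**Figure D3:**
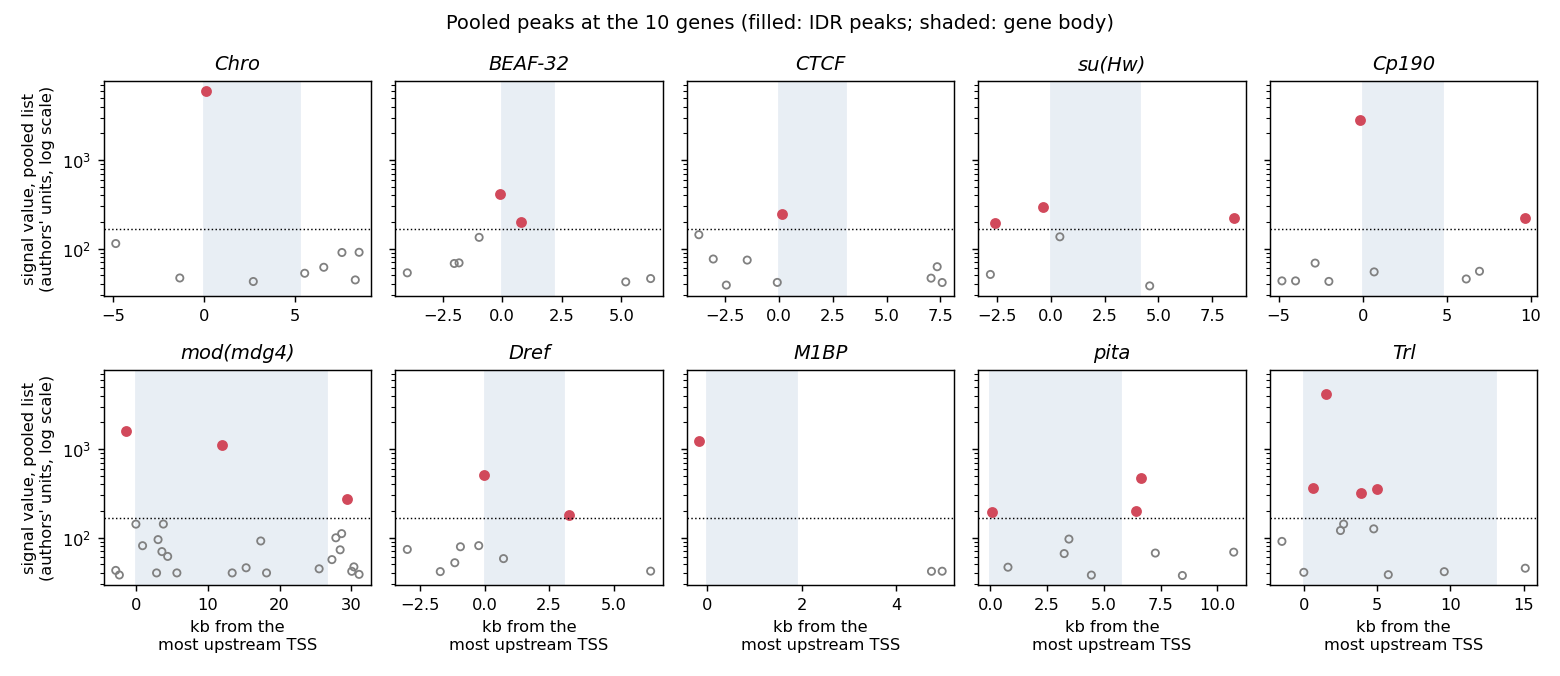
Signal value (log scale, the authors' units in the pooled list) of every pooled peak in the gene body or within 5 kb of each gene, by distance in kb from its most upstream TSS. Filled points are IDR peaks, open circles other pooled peaks, shading the gene body and the dotted line the lowest IDR signal, 165.2. Chro, Cp190 and M1BP had 1 promoter peak far above the rest, and mod(mdg4) and su(Hw) had leading peaks close in height.

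Of the housekeeping promoter factors, M1BP (FBgn0037621, 3R, 8729790 to 8731698, minus strand), the gene of the Motif 1 binding protein, had the stronger peak. It spanned 8731637 to 8732149 and ranked 541, with 871, 614 and 401 in replicates 1, 2 and 3 (mean 629 ± 235, SD, n = 3). The summit lay 182 bp upstream of M1BP and 211 bp upstream of CG8202 on the other strand, and replicate summits spanned 107 bp, the widest of the 10. If the replicate peak with the largest overlap was taken in place of the strongest one, the mean rank was 2590.

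Dref (FBgn0015664, 2L, 9964147 to 9967229, minus strand), whose product binds the DRE, had a peak at 9967200 to 9967427 that ranked 1989. It ranked 1191, 1472 and 3168 in replicates 1, 2 and 3 (mean 1940 ± 1070, SD, n = 3), so replicate 3 was the weakest, and taking the replicate peak with the largest overlap gave a mean rank of 5000. The summit lay 26 bp upstream of Dref and 58 bp upstream of RpL13, a ribosomal protein gene. A second IDR peak ranked 6213 and lay 15 bp upstream of CG5850, beyond the 3′ end of Dref.

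Trl (FBgn0013263, 3L, 14747929 to 14761049, minus strand), the GAGA factor gene, had 4 IDR peaks within its 13121 bp, and the strongest was not at a start. That peak spanned 14759284 to 14759756, ranked 26 and lay in an intron 1525 bp downstream of the outermost TSS. It ranked 36, 26 and 18 in replicates 1, 2 and 3 (mean 26.7 ± 9.02, SD, n = 3), with summits within 14 bp. The promoter peak of Trl was at an internal start, 184 bp downstream of it in the 5′ UTR, and ranked 3411, with 3643, 2496 and 4185 in replicates 1, 2 and 3 (mean 3440 ± 862, SD, n = 3). The summit of this promoter peak also lay in the 5′ UTR of CG42507, an overlapping coding gene. The other intronic peaks of Trl ranked 2952 and 3028.

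The 10 loci held 100 pooled peaks, of which 22 were IDR peaks. In the whole pooled list N of the 30000 peaks were IDR peaks, a similar share. Of the 22, 16 lay within 500 bp of a TSS of some gene and 6 in introns, but only 10 lay within 500 bp of a start of one of the 10 genes and only 12 had such a start as the nearest coding TSS. In the whole IDR list 2526 of the N peaks lay within 500 bp of a coding TSS. The 22 were picked for lying in or near genes, so their split by position is a description only. The best peaks of 7 genes were nearest to the gene's own TSS, and those of su(Hw), mod(mdg4) and pita were nearest to Polr2I, tin and wmd. At least 2 IDR summits were assigned to 7 of the 10 genes, all but Chro, CTCF and M1BP, against 27.3% of protein-coding genes. Overlapping peaks in the top N of every replicate were found for 15 of the 22, and for the other 7 in 2 replicates. In the whole IDR list they were found in every replicate for 4633 of the N peaks, a similar share. The 15 include the pita peak ranked 5604, which overlapped the same replicate peaks as the pita peak ranked 2187. With the replicate peak of nearest summit, the counts were 14 in every replicate, 7 in 2 replicates and 1 in no replicate.

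How far 1 peak stood above the others differed widely between loci, as the plot of pooled peaks by position shows. In the pooled list the strongest peak of Chro had 52.8 times the signal of the next peak at the locus and 91.7% of the summed signal. The ratio was 29.3 at M1BP, where the peak had 93.6% of the sum, 12.7 at Cp190 and 11.5 at Trl. Over the other 6 genes it was between 1.31 at su(Hw) and 2.83 at Dref, and at mod(mdg4) it was 1.41. The number of pooled peaks at a locus ran from 3 at M1BP to 25 at mod(mdg4). At M1BP the next peak had a signal of 41.8 and ranked 26588, near the lowest pooled signal of 37.3. The ratio and share there thus depend on where the list was cut.

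Of the 10 genes, 6 had a divergent protein-coding partner, transcribed away from a start within 1000 bp, against 36.2% of protein-coding genes: Chro, Cp190, Dref, M1BP, su(Hw) and Trl. All 6 had an IDR summit within 500 bp of a TSS, against 43.3% of protein-coding genes with such a partner. Of the 4 genes without a partner, 3 had one, BEAF-32, CTCF and pita, against 12.7% of protein-coding genes without a partner. These counts take a summit near any start of the gene, not only the one that faces the partner, and Trl was counted through an internal start. A summit between divergent starts can be assigned to both genes.

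**Figure D4:**
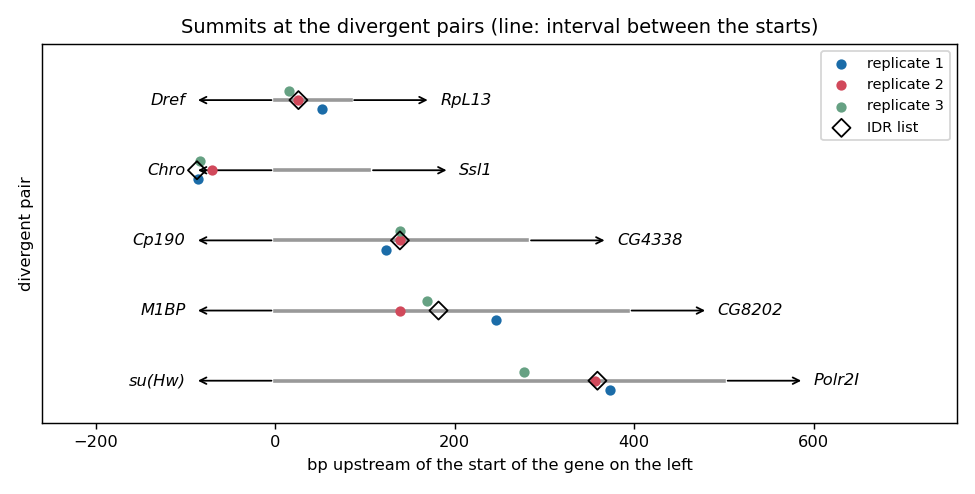
Summits at 5 divergent pairs, by distance in bp upstream of the start of the gene named on the left. Open diamonds are IDR summits, coloured points replicate summits and grey lines the interval between the starts. Summits lay between the starts at Dref, Cp190, M1BP and su(Hw). At Chro the summit was downstream of the outermost start, the one drawn, and upstream of an internal start that is not drawn.

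Within the pairs the summit position was not uniform. The starts were 281 bp apart for Cp190 and CG4338, 393 bp for M1BP and CG8202 and 84 bp for Dref and RpL13, and the summits were 2, 14 and 16 bp from the midpoint, on the side of Cp190, M1BP and Dref. Between su(Hw) and Polr2I, 500 bp apart, the summit was 109 bp from the midpoint on the side of Polr2I. The starts of Chro and Ssl1, a gene of the transcription factor TFIIH, were 105 bp apart and the summit was 140 bp from the midpoint on the side of Chro. No IDR summit lay between Trl and Mgat4a, 979 bp apart with Tsen34 between them. A peak at a shared promoter cannot be assigned to 1 gene of the pair from position alone.

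Motif letters were counted on both strands within 50 bp of the 10 IDR summits near a start of these genes, with the share of the 2526 IDR windows at coding promoters and of all IDR windows beside each. CGATA was found in 2 of the 10 windows, those of Chro and Dref, against 20.6% of windows at coding promoters and 14.0% of all. TATAAA was found in 2, those of su(Hw) and M1BP, against 26.6% and 26.9%, with 5 matches at M1BP. Both counts were near or below the share at coding promoters. The full DRE, TATCGATA, which contains CGATA, was found in none, against 2.93% at coding promoters and 1.19% of all. The GAGA element GAGAG was also in none, against 6.25% and 6.95%, nor were the Motif 1 core GGTCACAC, against 1.31% and 0.596%, and the CTCF core GGTGGCGC, against 0.515% and 0.492%. The same held for the Zelda site CAGGTAG, against 0.435% and 0.418%, the E-box CAGCTG, against 3.05% and 2.25%, and the paired DM-domain half-sites ACANTGT, against 3.68% and 3.36%. In 10 windows an absence of a motif held by a few percent of all windows carries no information on its own.

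Read on the plus strand as printed, the CGATA of Dref lay 9 to 13 bp before its summit in the interval to RpL13, which is the side of the Dref start. In the 280 bases between Cp190 and CG4338, the CTCF core began at base 257 and CGATA at base 11, both outside the 101 bases around the summit. Over windows of 281 bp around the 2526 IDR summits within 500 bp of a coding TSS, the CTCF core was present in 1.27% and CGATA in 49.7%. Of the members' 10 windows at that width, 1 held the CTCF core and 8 held CGATA. The full DRE was in 2, those of BEAF-32 and pita, against 10.9%. Lower or similar shares were seen for TATAAA, in 3 against 50.4%, GAGAG, in 1 against 25.8%, and the E-box, in 1 against 15.9%. The other motifs were in none. The 101-base windows of the members' promoter summits had a median GC content of 33.2%, with M1BP the lowest at 11.9% and Dref the highest at 48.5%, and windows 500 bp to either side of them had 48.0%. Over all IDR peaks the medians were 29.7% at the summit and 43.6% in the flanks.

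Lists of genes that work with these factors gave the setting for the members. Of 13 other insulator and architectural genes, 3 had an IDR summit within 500 bp of a TSS, which is 23.1% and near the 23.8% of protein-coding genes. The strongest were at pzg, whose product is found with Chromator in interbands, and e(y)2, whose product acts with Su(Hw). Pzg ranked 329, with 791, 259 and 292 in replicates 1, 2 and 3, and e(y)2 ranked 2430, with 4525, 2100 and 2199. Most of that list, dwg, ZIPIC, Clamp and the Elba and Ibf genes among them, therefore had no promoter peak in the IDR list.

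Of 9 cohesin and condensin II genes, 4 had a promoter summit (44.4%, against 23.8% of protein-coding genes). The strongest were at pds5, a cohesin regulator, and SA1, a cohesin subunit. They ranked 106 and 1162, with replicate ranks of 87, 120 and 118 for pds5 and 1002, 1189 and 1319 for SA1. Of 11 genes of the NSL complex, which acts at housekeeping promoters, and other chromatin cofactors, 5 had one (45.5%), led by Rcd5 of that complex at rank 2369 and fs(1)h, a bromodomain gene, at rank 4094. The replicate ranks were 2534, 3067 and 2032 for Rcd5 and 3524, 3903 and 4513 for fs(1)h. The largest share was in the 9 pausing factor genes, of which 7 had one (77.8%), led by the NELF subunit genes TH1 at rank 352 and Nelf-E at rank 580. In replicates 1, 2 and 3 TH1 ranked 440, 501 and 281 and Nelf-E 247, 594 and 986. The median promoter rank was 1229.5 in the cohesin and condensin II list, 4258 in the NSL and cofactor list and 3933 in the pausing list. Over protein-coding genes with a promoter summit it was 3010. The pausing list also held 7 genes with a divergent partner of 9, against 36.2% of protein-coding genes. Among protein-coding genes with such a partner, 43.3% had a promoter summit. All lists are described by their counts and ranks with no test.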

How the data were processed

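ChIP-seq peaks of 1 group with 3 biological replicates were used. Per the file headers (the read-me text of each sample), the authors called peaks for every replicate and for the replicates pooled, against 1 control, on dm6. Aligner, caller and parameters were not given in the sources used here. The signal value deposited by the authors is a score on a scale of its own in each list and was used within a list only, to rank peaks and to give the ratio and share of a locus's highest peak. The deposited −log10 q was used to describe the lists and, as an alternative, to rank peaks. All 6706 IDR peaks were in the pooled list with the same signal and the same rank. The labels number them as biological replicates, with a biosample entry each, of 1 line. The embryo age was taken from the source name, since the age field cannot be read as an embryo age.

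Summits were assigned with Ensembl release 115 (BDGP6.54), transposable elements left out, to a gene body or 5 kb around it and to a TSS within 500 bp, with a minimum overlap of 1 bp between peaks of different lists. The replicate rank is that of the overlapping peak of highest signal. Coordinates count from 1, and negative strand distances follow transcription. Named genes were the 10 members, every divergent partner, genes with a TSS within 500 bp of a named summit, and in each list the 2 genes with the highest promoter peak. Genes named for an intron or 5′ UTR under a summit, and genes of the insulator list without a promoter peak, were named after their values were seen. The members, lists and motifs were chosen with earlier results of these data known, and no list is independent evidence. The list symbols SA, Spt4 and Nelf-B were matched to SA1, spt4 and NELF-B. Alternatives changed the assignment window, the IDR subset, the replicate matching, the partner distance and the motif window, and the nearest-TSS rule, the reciprocal overlap of 50% and the 281 bp window were added after seeing the data. Python 3.11.15, numpy 2.4.6, pandas 2.3.3 and matplotlib 3.10.9 were used, and the assignment was tested on simulated data.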

Additional observations from a re-analysis of the deposited data

How the results depend on the processing

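No paired analysis was possible because there was 1 group and no contrast. Of the 10 members with an IDR summit in the gene body or within 5 kb, 6 remained with the gene body only (13.0% of protein-coding genes, 1819), without Cp190, Dref, M1BP and su(Hw), and the 22 distinct peaks became 9. The members' count was 8 to 10 under the other alternatives, where the share of protein-coding genes was 25.6% to 48.2%. For all protein-coding genes, 7623 in the report, the count was 4793 within 1 kb, 4799 with a reciprocal overlap of 50% in every replicate and 3575 with the nearest coding TSS only. Of 9 promoter genes, 5 were left among the 3353 IDR peaks with the higher signal (1838 protein-coding genes) and 4 with the reciprocal overlap (1672), without CTCF, M1BP, Trl, pita and su(Hw). The promoter count was 8 with a TSS window of 200 bp (16.5% of protein-coding genes) and 9 with 1000 bp (27.1%).

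Leaving out 1 replicate gave 9 to 10 members for gene bodies, CTCF lost without replicate 2 or 3, and 6 to 9 for promoters, and 6473 to 6737 and 2542 to 2745 protein-coding genes. The median over members of the mean replicate rank was 1290, and 2550 with the replicate peak of largest overlap. Of the 10 member summits, CGATA was found at 4 within 100 bp (37.7% of IDR summits at coding promoters), the E-box at 1 (8.59%), and TATAAA at 1 within 25 bp (14.7%). The cause of these changes was not tested beyond the smaller sets and windows themselves. Members with a partner numbered 5 within 500 bp (27.3% of protein-coding genes), 9 within 2000 bp (44.4%) and 7 with non-coding genes (39.6%). Precision rests on 3 replicates and on lists cut at 30000 peaks.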
